A study of Mus musculus with 4 samples.

Results

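The genes described here encode the proteins of the cytoplasmic ribosome. They were chosen by symbol, as every gene named Rpl or Rps followed by a number together with Rplp0, Rplp1, Rplp2 and Rpsa, and 92 of the 45706 genes in the count table met that rule. Processed pseudogenes with a -ps suffix (268 genes) and the Rps6k kinases (10 genes) were left out. Of the 92, 77 are the standard ribosomal protein genes, 46 of the large and 31 of the small subunit. A further 7 are paralogues (Rpl3l, Rpl7l1, Rpl10l, Rpl22l1, Rpl36al, Rpl39l and Rps27l). The annotation gives 6 as pseudogenes (Rpl37rt, Rpl6l, Rps12l1, Rps3a2, Rps3a3 and Rps4l) and 1, Rps27rt, as a protein-coding retrogene. Rps19bp1 met the symbol rule but encodes a binding partner of RPS19 and no ribosomal protein.

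RNA was measured in the outflow tract of the heart, the arterial pole from which the aortic and pulmonary roots form, in C57BL/6 mouse embryos at embryonic day 12.5. Wild-type (WT) tissue was compared with Sox17eKO tissue, in which Cre driven by an Nfatc1 enhancer removed Sox17 from the endothelium of the aortic root, so the other cells of the tissue kept the gene. Each of the 2 libraries per genotype came from 10 pooled hearts, so p-values measure how far such pools differ. The series was designed to find targets of SOX17.

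A ribosome is built from a large subunit, which joins amino acids, and a small subunit, which reads the messenger RNA. Each carries ribosomal RNA and a set of proteins needed in near equal numbers, and the messenger RNAs for these proteins usually begin with a run of pyrimidines, the 5′ terminal oligopyrimidine (TOP) tract, through which growth signals set their translation. Translation and protein level were not measured here, only RNA.

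Gene reads numbered 8113463 to 12880081 in WT and 14306550 to 21883956 in Sox17eKO. Sox17 itself had 78 and 54 reads in WT and 40 and 62 in Sox17eKO, and its log2 fold change was -1.19 (edgeR adjusted p = 0.00574, and 0.0519 without WT replicate 2). Markers of cardiomyocytes (12 of 12), endothelium (9 of 9), smooth muscle (5 of 5) and cushion mesenchyme (7 of 7) were all detected, as were the 7 macrophage and 5 epicardial markers. Levels are in CPM, counts scaled to a library total adjusted by the TMM method. The summed level of the 12 cardiomyocyte markers was 27900 to 28450 CPM in WT and 40269 to 41055 in Sox17eKO, and the median log2 fold change over the 12 was -0.03. Most of that rise in the sum was Ttn, with a mean of 7298 CPM in WT and 18858 in Sox17eKO, and 7 of the 12 were fitted lower. Ttn and Ryr2 were called higher (1.37 and 0.74, edgeR adjusted p = 3.80e-06 and 5.62e-05). The summed level of the 13 of 14 erythroid markers in the table was 2657 to 3583 CPM in WT and 1742 to 2362 in Sox17eKO. All 13 of 13 were fitted lower (median log2 fold change -0.56), and Hbb-y was called (-0.56, edgeR adjusted p = 0.0288). The epicardial sum was 320 to 345 CPM in WT and 269 to 295 in Sox17eKO, with 5 of 5 markers fitted lower and Upk3b and Lrrn4 called (-0.35 and -0.53, edgeR adjusted p = 0.0142 and 0.0143). The endothelial sum was 905 to 922 CPM against 835 to 891, with 8 of 9 fitted lower and Tie1 called (-0.34, edgeR adjusted p = 0.0204). The smooth muscle sum was 1913 to 1951 CPM in WT and 1720 to 1770 in Sox17eKO, with 3 of 5 fitted lower. Cnn1 was called lower and Myocd higher (-0.35 and 0.31, edgeR adjusted p = 0.0239 and 0.0423). The cushion mesenchyme sum was 5291 to 6181 CPM in WT and 6606 to 6827 in Sox17eKO. There 4 of 7 were fitted lower and Vcan was called higher (0.52, edgeR adjusted p = 0.0106). The share of uniquely placed reads outside annotated features was 22.2% and 20.4% in WT and 34.1% and 29.5% in Sox17eKO. No marker was at 0 in every library, and their part in the results below was not tested. In tissue RNA, fewer cells of a type and less RNA per cell cannot be told apart.

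The start windows of 6 members are shown first, because the results turn on Rps27l and its relatives and because the TOP tract is the feature that ribosomal protein genes are known to share. Each window runs from 10 bases before to 20 bases from the RefSeq transcription start (GRCm38.p6), on the transcript strand. Capitals mark a C followed by at least 4 bases that are C or T, where the run begins within 5 bases of the start.
Rps27 (chr3:90213629-90213658, minus strand): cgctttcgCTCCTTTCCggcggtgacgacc
Rps27rt (chr9:114982720-114982749, minus strand): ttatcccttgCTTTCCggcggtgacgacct
Rps27l (chr9:66946076-66946105, plus strand): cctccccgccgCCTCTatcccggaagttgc
Rpl22l1 (chr3:28805498-28805527, plus strand): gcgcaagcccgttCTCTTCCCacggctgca
Rpl15 (chr14:18270967-18270996, minus strand): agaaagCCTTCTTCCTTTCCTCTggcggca
Rpl4 (chr9:64173377-64173406, plus strand): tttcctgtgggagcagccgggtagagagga
Rps27 and the retrogene Rps27rt shared an unbroken run of 38 bases. It begins at base 2 of Rps27 and base 1 of Rps27rt, counted from the RefSeq start. The longest run that Rps27 shared with Rps27l was 8 bases, at bases 6 to 13 of Rps27 and -86 to -79 of Rps27l. That place lies outside the Rps27l window shown. Rpl15 held a tract of 17 bases, Rps27l one of 5 bases, the shortest that the rule allows, and Rpl4 had no match in this window. Another RefSeq start of Rps27l (window chr9:66946403-66946432) held no tract. Such a tract was found in 32 of 79 RefSeq start sites of the members (40.5%, from 67 genes), against 5610 of all 32851 start sites (17.1%) and 14 of 75 start sites of mitochondrial ribosomal protein genes (18.7%). RefSeq starts can lie some bases from the start used in this tissue, so a window without a match says only that these letters are not there.

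The members' counted levels spanned a wide range. They rest on reads that could be placed on a member, so they need not follow the amount of its messenger RNA. Levels are per kilobase of exon, where exon length joins the exons of all annotated transcripts of a gene. For Rps13 that length was 2691 bases, the same as the whole gene. The mean level over the 4 libraries ran from 1.01 CPM per kb for Rps13, through a median of 21.7, to 801 for Rplp1. That is a 796-fold range among the 88 members that passed the filter on low counts. The 10 members with the most reads held 51.6% to 53.4% of all member reads. Both ends hold proteins of both subunits.

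Rplp1, a protein of the stalk that recruits elongation factors, stood highest with 794 and 882 CPM per kb in WT and 750 and 778 in Sox17eKO. Rpl8, near the peptidyl transferase centre, had a mean of 558 CPM per kb and Rpl4, which lines the exit tunnel, 441. The stalk base Rplp0 had 330 and the annotated pseudogene Rpl37rt had 324. In all of these, each Sox17eKO library lay below each WT library. At the other end stood Rps13 (1.01 CPM per kb), Rpl24 (1.42, from 9 to 37 reads a library), Rpl28 (2.38), Rpl17 (2.39), Rpl11 (3.03) and Rps23 (3.80). Rpl11 binds the 5S ribosomal RNA together with Rpl5, and Rps23 sits at the decoding site. Rps13, Rpl17, Rpl28 and Rps23 had fewer reads than their -ps pseudogenes (150 against 1042, 190 against 2525, 250 against 2380 and 276 against 11580). For Rpl24 and Rpl11, 18.3% and 46.0% of 50-base stretches were found in no other annotated gene. These low levels are therefore uncertain.

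**Figure D1:**
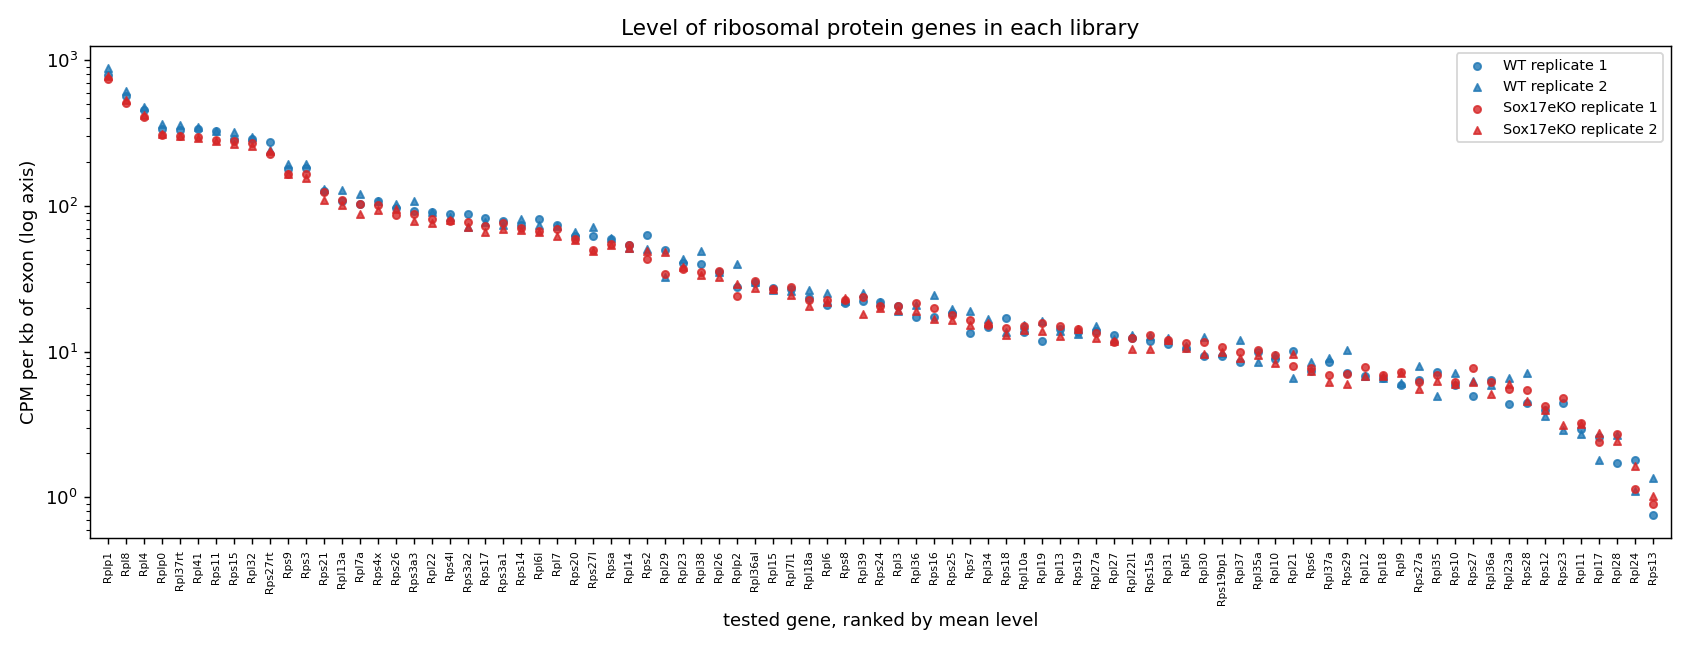
Level of 87 of the 88 tested members in CPM per kilobase of exon (log axis), ranked by mean level, with 1 point for each library (blue WT, red Sox17eKO; circles replicate 1, triangles replicate 2). The levels run from 801 for Rplp1 to 1.01 for Rps13, and for most members the 4 libraries lie close together compared with that span.

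Ribosomal protein genes have many processed copies in the mouse genome, so the reads that could be given to a member with certainty differed from gene to gene. The share of a member's 50-base stretches found in no other annotated gene ran from 4.91% for Rpl35 to 100%, with a median of 61.5%, and was under 50% for 32 of the 88. Across the 88 members, the share unique at 100 bases and the log10 level per kilobase had a Pearson r of 0.362 and a Spearman rho of 0.384, a description over genes that share the same libraries. The -ps pseudogenes held 30.3% to 31.0% of the reads of members and -ps pseudogenes together, and this share overlapped between the genotypes. For 25 of the 59 members with a named -ps copy, the copies held more reads than the gene itself.

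Rps23 had 276 reads over the 4 libraries and its -ps copies 11580, which is 97.7% of the sum. Rpl36a had 547 against 13185 (96.0%), and Rps6, the target of the S6 kinases, 688 against 13080 (95%). With the copies added, Rps6 had 3583 and 1935 reads in WT and 3319 and 4931 in Sox17eKO, and its log2 fold change moved from -0.06 to -0.21 (edgeR adjusted p = 0.850 and 0.143). The level of such a member is therefore given as uncertain, and the sums are set beside the members' own values below.

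Of the 88 members tested, 1 fell and none rose in Sox17eKO. The edgeR quasi-likelihood test at an adjusted p under 0.05 called 5.35% of all 16570 genes changed, 4.13% higher and 1.22% lower. Among the members, 18 had an unadjusted p under 0.05 and 87 did not pass the adjusted threshold. In sign, 66 of the 88 (75%) had a fitted level below WT, against 51.8% of all genes, and the members' median log2 fold change was -0.11 against -0.01 for all genes. Most members are short, and of the 2614 other protein-coding genes in the shortest of 5 length classes, 77.7% lay below WT. Both Sox17eKO libraries lay below both WT libraries for 38 members (43.2%; 26.2% of all genes) and above them for 8 (9.09%; 26.5% of all genes).

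Summed over members, the share of gene reads was 1.04% and 1.07% in WT and 0.983% and 0.952% in Sox17eKO. The groups did not overlap, and the means were 1.05% ± 0.0202 and 0.967% ± 0.0216 (SD, n = 2 pools each; exact permutation test, two-sided, p = 0.333, the smallest that 2 against 2 can give). The -ps copies followed with 0.467% and 0.464% in WT and 0.433% and 0.414% in Sox17eKO.

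**Figure D2:**
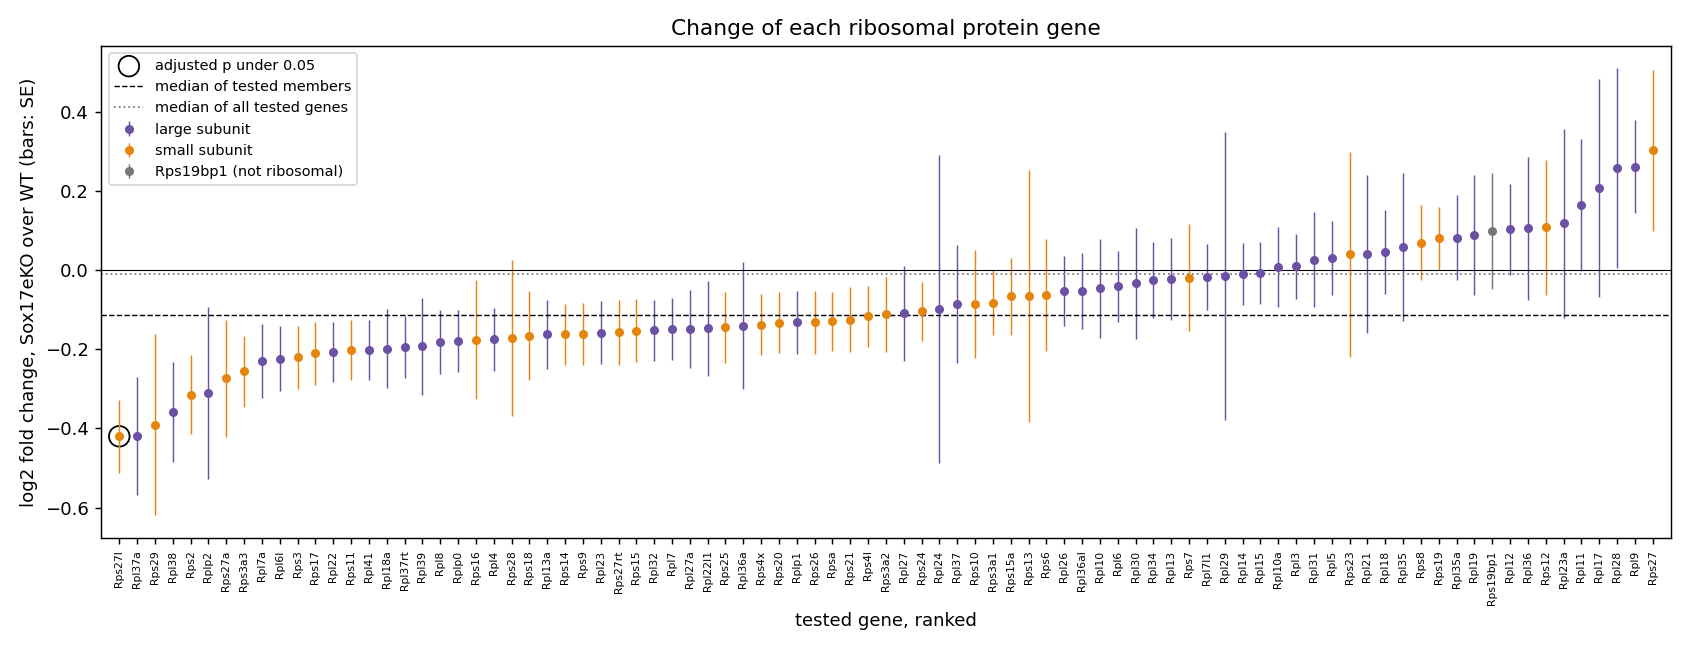
Log2 fold change of Sox17eKO over WT for 87 of the 88 tested members, ranked, with bars of 1 standard error from the edgeR fit (purple large subunit, orange small subunit, grey Rps19bp1; the dashed line is the members' median and the dotted line that of all genes). Rps27l, circled as the called member, lies at -0.42, and most members lie below 0.

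Neither subunit had more than 1 member past the test, so the 2 are compared by counts, medians and their summed levels. For the large subunit, 35 of 51 tested members had a fitted level below WT, with a median log2 fold change of -0.05. In that direction 17 (33.3%) did not overlap between the groups, against 26.2% of all genes. For the small subunit, 31 of 36 were below WT, with a median of -0.14 and 21 (58.3%) without overlap. The ratio of the subunits' summed CPM per kb was 1.47 and 1.53 in WT and 1.49 and 1.53 in Sox17eKO. These values overlap, with a difference of means of 0.0130 (exact permutation test, two-sided, p = 0.667), so the summed level gave no difference in subunit balance beyond the spread between pools. A ratio built on the median member instead of the sum was 0.282 and 0.342 in WT and 0.439 and 0.369 in Sox17eKO (exact permutation test, two-sided, p = 0.333). That ratio rests on members of middling level, and the groups did not overlap in it.

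The fold changes were also set beside read number. With a split at a mean of 1000 reads, chosen after the values were seen, all 33 members above it had a fitted level below WT under TMM scaling, and 31 of 33 when only the library size was used. Their log2 fold changes ran from -0.31 to -0.01 with a median of -0.16. Of these members, 27 (81.8%) did not overlap between the groups, against 26.2% of all genes, taken at any read number. The 14 large subunit members among them had a median of -0.17 and the 19 small subunit members one of -0.15. Below 1000 reads, 33 of 55 members were under WT with a median of -0.03. There the large subunit had 21 of 37 under WT with a median of -0.02, and the small subunit 12 of 17 with a median of -0.09. Across the 88 members, log10 reads and log2 fold change had a Pearson r of -0.421 and a Spearman rho of -0.482. With each member summed with its -ps copies, an alternative chosen after seeing the data, 76 of 88 lay below WT, the median was -0.13 for the large and -0.17 for the small subunit, and Rps27l was again the called member.

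**Figure D3:**
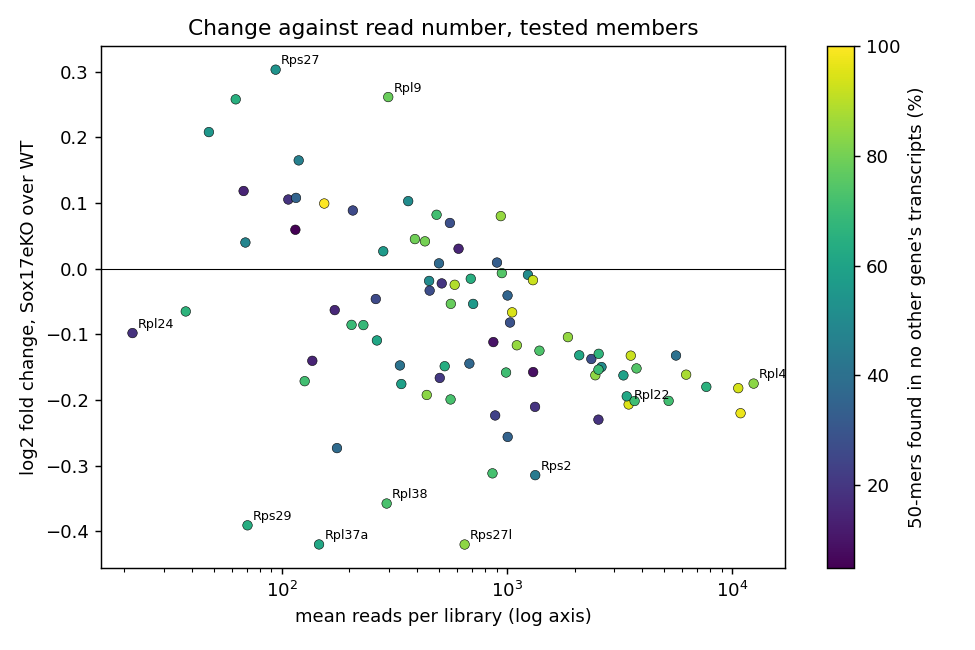
Log2 fold change of Sox17eKO over WT against the mean number of reads per library (log axis), with 1 point for each of 87 members, coloured by the share of its 50-base stretches found in no other gene. All members drawn with a mean of at least 1000 reads lie below 0, and the 55 with fewer reads lie on both sides.

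Rps27l was the member that fell. It encodes a near copy of the small subunit protein RPS27. Rps27l (ENSMUSG00000036781, chr9:66946086-66949516, plus strand of mm10) had 658 and 459 reads in WT and 593 and 887 in Sox17eKO, or 51 and 58.1 CPM against 40.9 and 40.3 CPM. Both Sox17eKO libraries lay below both WT libraries, and the means were 54.6 ± 4.97 CPM and 40.6 ± 0.388 CPM (SD, n = 2 pools each). The fitted level was 74.7% of WT, or -0.42 ± 0.0921 (SE) as a log2 fold change (edgeR adjusted p = 0.0127). The call was lost without WT replicate 2 (log2 fold change -0.33, edgeR adjusted p = 0.149). It was also lost in a fit of protein-coding genes after a trend on exonic length and genomic span together was removed (-0.24, edgeR adjusted p = 0.199).

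Its partner Rps27 (ENSMUSG00000090733, chr3:90212522-90213651, minus strand) did not pass the test. It had 67 and 52 reads in WT and 116 and 141 in Sox17eKO, or 5.20 and 6.58 CPM against 8.0 and 6.41. The groups overlap, and the log2 fold change was 0.30 ± 0.200 (SE; edgeR adjusted p = 0.416). The retrogene Rps27rt, of whose 50-base stretches 8.92% were unique, was given far more reads than Rps27. Rps27rt had 103 and 90.3 CPM in WT and 85.5 and 88.6 in Sox17eKO, and its log2 fold change was -0.16 (edgeR adjusted p = 0.285). Per kilobase, Rps27l made up 92.6% and 91.9% of Rps27l plus Rps27 in WT and 86.7% and 88.9% in Sox17eKO. Counted with Rps27rt as well, its share was 18.2% and 22.3% in WT and 17.5% and 16.9% in Sox17eKO, so its share depends on whether the retrogene is counted. Both shares were without overlap between the groups and lower in Sox17eKO.

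Rps27l is known as a p53 target, and the list of other p53 targets was read beside it. Of the 24 genes on that list, 1 rose and none fell, with a median log2 fold change of -0.02. The gene that rose was Mdm2, whose product degrades p53 and is bound by free Rpl5 and Rpl11, at 0.32 (edgeR adjusted p = 0.0315). That call was lost with any 1 library left out (adjusted p of 0.0829 to 0.147) and with DESeq2 (0.0866). Cdkn1a, the cell cycle inhibitor p21, was at 0.08 and Trp53 itself at -0.18, neither past the test. Rpl5 and Rpl11 did not pass it either, with log2 fold changes of 0.03 and 0.16.

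Of the 8 paralogue pairs, 5 had enough reads on both sides to compare, and the smallest adjusted p for a share was 0.833 (exact permutation tests, two-sided, Benjamini-Hochberg over 5 pairs, with a smallest raw p of 0.333). Rpl22l1, which can stand in for the RNA-binding large subunit protein Rpl22, made up 12% and 12.4% of the pair in WT and 13.3% and 12% in Sox17eKO. The groups overlap, and Rpl22 (266 and 266 CPM against 237 and 224) and Rpl22l1 (24.7 and 25.7 against 24.8 and 20.8) had log2 fold changes of -0.21 and -0.15. Rpl7l1, a homologue of Rpl7, made up 26.7% and 26.2% of its pair in WT and 28.6% and 28.1% in Sox17eKO. These groups do not overlap, and the difference of 1.84 percentage points came with log2 fold changes of -0.15 for Rpl7 and -0.02 for Rpl7l1 (95% interval -0.19 to 0.16).

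Rps4x, the X-linked small subunit gene, and its annotated pseudogene Rps4l had shares that overlapped, with Rps4l at 44.6% and 44.0% in WT and 43.6% and 45.8% in Sox17eKO. Rpl36al made up 82.4% and 83.6% of its pair with Rpl36a in WT and 83.1% and 84.3% in Sox17eKO, also with overlap. No p-value here shows that a pair was unchanged, since 2 libraries against 2 cannot reach 0.05.

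**Figure D4:**
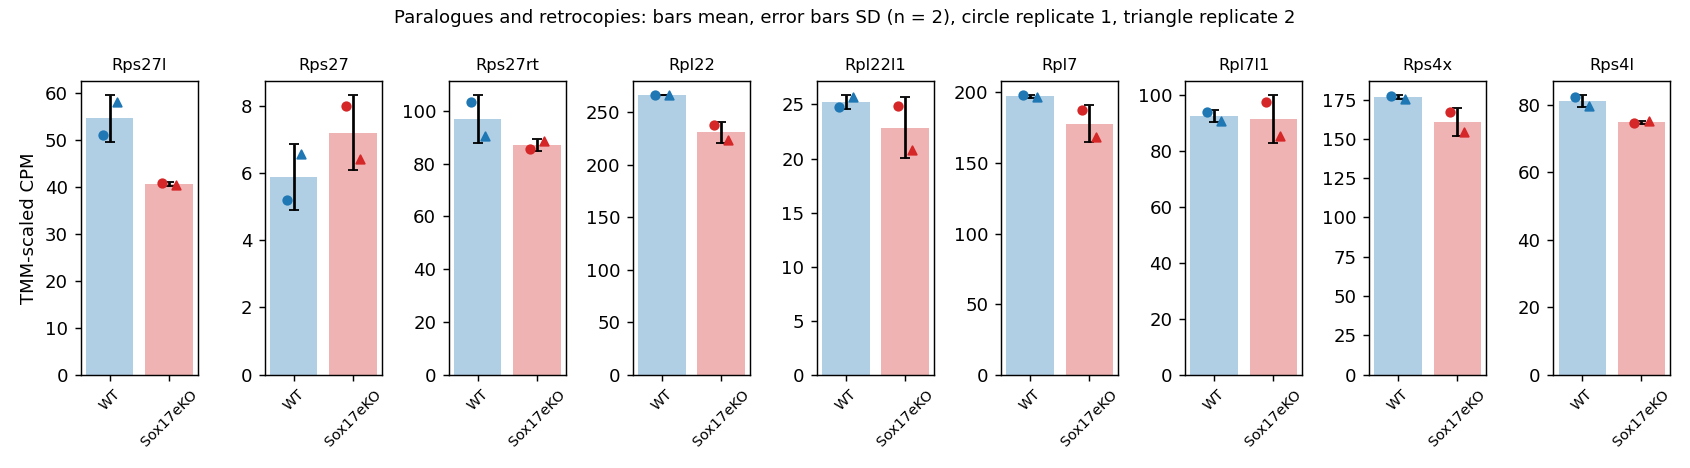
Level in TMM-scaled CPM of Rps27l, Rps27, the retrogene Rps27rt and the pairs Rpl22 and Rpl22l1, Rpl7 and Rpl7l1, Rps4x and Rps4l, each panel with its own axis from 0 (bars are means, error bars SD with n = 2, and points are libraries). The points of Rps27l, Rps27rt, Rpl22, Rpl7, Rps4x and Rps4l lie lower in Sox17eKO with no overlap. Those of Rps27, Rpl22l1 and Rpl7l1 overlap between the genotypes.

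In the other 3 pairs the tissue-restricted partner had 0 to 4 reads a library. Rpl3l, the striated muscle partner of Rpl3 (chr17:24727820-24736143), had 4 and 0 reads in WT and 1 and 3 in Sox17eKO. All of its 50-base stretches were unique (100%), so its reads could be placed. At these depths 3 counts correspond to 0.136 to 0.380 CPM, which is the limit that a count of 0 allows and covers counting error only. Rpl3 had 65.3 and 60.1 CPM in WT and 65.0 and 61.6 in Sox17eKO (log2 fold change 0.01). Rpl39l and Rpl10l, both known from the testis, had 2, 0, 0 and 3 reads and 0, 0, 1 and 0 reads over WT replicates 1 and 2 and Sox17eKO replicates 1 and 2. Rps12l1 was not tested either, with 6 reads in Sox17eKO replicate 2 and none in the other libraries.

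Beyond Rps27l, the lowest fold changes were those of Rpl37a, Rps29, Rpl38 and Rps2, none of which passed the test. Rpl37a, a zinc-binding large subunit protein, had 11.9 and 12.7 CPM in WT and 9.72 and 8.69 in Sox17eKO, and its log2 fold change was -0.42 (edgeR adjusted p = 0.107). Rpl38, whose loss in mice alters the axial skeleton, had 21.6 and 26.7 CPM against 19.1 and 18.3, a log2 fold change of -0.36 (adjusted p = 0.104). Its -ps copies held 84.3% of the reads of gene and copies, and with them added it was -0.18 (adjusted p = 0.207). Rpl37a and Rpl38 lay lower in both Sox17eKO libraries, and Rpl38 passed the threshold without WT replicate 1 (adjusted p = 0.0283). Rps2, at the messenger RNA entry of the small subunit, had 116 and 92.9 CPM against 78.9 and 89.6, a log2 fold change of -0.31 (adjusted p = 0.0809). It passed without WT replicate 2 (0.0219), without Sox17eKO replicate 2 (0.0124) and with no filter on low counts (0.00730). With its -ps copies added, which held 40.4% of the sum, Rps2 was at -0.17 (adjusted p = 0.337). Rps29 had 4.96 and 7.08 CPM against 4.90 and 4.14 (log2 fold change -0.39, adjusted p = 0.347), without overlap between the groups.

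The highest fold changes were those of Rps27, Rpl9, Rpl28, Rpl17 and Rpl11, all with a mean under 1000 reads. Rpl9 had 18.2 and 18.7 CPM in WT and 22.3 and 22 in Sox17eKO, and its log2 fold change was 0.26 (edgeR adjusted p = 0.211). Its groups do not overlap, but with its -ps copies added the log2 fold change was -0.16 (adjusted p = 0.272). Rpl28 and Rpl17 had log2 fold changes of 0.26 and 0.21, and with their copies added each came to 0.00. The fold changes of these 3 members thus differed with and without the copies.

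Among the stalk proteins, Rplp0 had 559 and 604 CPM in WT and 509 and 517 in Sox17eKO (log2 fold change -0.18). Rplp1 had 396 and 440 against 374 and 388 (-0.13). Rplp2 had 57.4 and 82.2 against 50.3 and 60.6 (-0.31, edgeR adjusted p = 0.515), and its spread between the pools was as large as its shift. Rplp0 and Rplp1 were without overlap between the groups, and Rplp2 overlapped. Of the other abundant members, Rps3, a small subunit protein at the messenger RNA entry, had 820 and 865 CPM against 747 and 700 (-0.22, adjusted p = 0.116). Rpl8 had 770 and 842 CPM against 695 and 725, and Rpl4 918 and 960 against 817 and 846, with log2 fold changes of -0.18 and -0.17. The groups overlap in none of Rps3, Rpl8 and Rpl4, and none of them passed the test.

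Of the annotated pseudogenes, all 5 that were tested (Rpl37rt, Rpl6l, Rps3a2, Rps3a3 and Rps4l) had a fitted level below WT, with a median log2 fold change of -0.19. The groups did not overlap for 4 of them (80%; 26.2% of all genes). Rps19bp1, which is no ribosomal protein, had 10.2 and 10.6 CPM in WT and 11.6 and 10.7 in Sox17eKO (log2 fold change 0.10, edgeR adjusted p = 0.761). Among ribosome components that the symbol rule misses, Rack1, a scaffold on the small subunit head, had 14958 and 9560 reads in WT and 14990 and 22935 in Sox17eKO (-0.19, adjusted p = 0.176). Fau, which encodes a small subunit protein fused to a ubiquitin-like one, had a log2 fold change of 0.22 (adjusted p = 0.394).

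Members were also set apart by 2 gene features, the TOP tract and small nucleolar RNA genes. RefSeq starts were at hand for 67 of the 92 members, and a member was counted with a tract if any of its starts held one. The 30 tested members with a tract had a median log2 fold change of -0.09, and so did the 34 with none. A RefSeq start can lie off the start in use, so this split cannot separate TOP messages from others. Small nucleolar RNA genes, which guide chemical marks on ribosomal RNA, lie inside 30 members, 58 in all, such as Snord32a, Snord33, Snord34 and Snord35a in Rpl13a. These 30 hosts had a median of -0.11, and the 58 tested members without one had the same median of -0.11.

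Exonic length ran with the fold change in other protein-coding genes, and most members are in the shortest class. Ribosomal protein genes are short, and 59 of the 83 tested protein-coding members were in the shortest of 5 equal length classes of protein-coding genes (255 to 2581 bases of exon). The median log2 fold change there was -0.14 for the members and -0.14 for the other 2614 genes. Over the 5 length classes, the medians of the other genes were -0.14, -0.08, -0.03, 0.04 and 0.16 from the shortest to the longest. Those of the members were -0.14 (59 genes), -0.02 (17), 0.03 (5) and -0.09 (2) in the first 4 classes, with none in the longest. Over all 88 tested members, length and log2 fold change had a Pearson r of 0.206 and a Spearman rho of 0.242. After the trend of each library on length was removed, the median of the protein-coding members was 0.02, against -0.10 before, and 37 of 83 lay below WT, against 60 before. The large subunit then had a median of 0.06, the small subunit one of -0.03, and the 30 protein-coding members with at least 1000 reads one of -0.06, with 21 of 30 below WT. This step does not part exonic length from span, and it would take away a true genotype difference too if that ran along either.

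**Figure D5:**
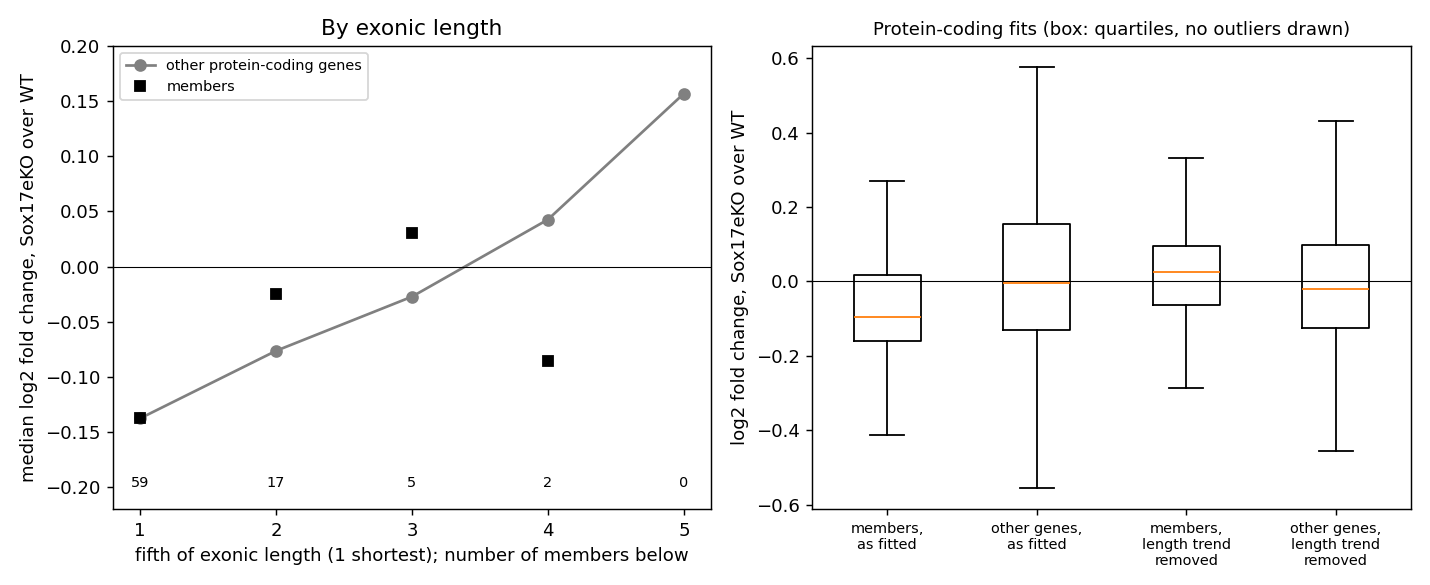
Left, the median log2 fold change of members (squares) and of other protein-coding genes (circles) in 5 classes of exonic length, with the number of members under each. Right, boxes (quartiles and median, whiskers without outlying points) of members and other genes before and after each library's trend on exonic length and genomic span was removed. Members and other genes both have a median of -0.14 in the shortest class, and the members' median moves from -0.10 to 0.02.

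Lists of other genes of the translation machinery were read from the same fit. Of 29 initiation and elongation factors, 2 fell and none rose, and 28 had a fitted level below WT, with a median log2 fold change of -0.10. The 2 that fell were Eif3f, a subunit of the scaffold that loads the small subunit, at -0.33 (edgeR adjusted p = 0.0301), and Eif5a, which relieves stalled ribosomes, at -0.29 (adjusted p = 0.0404). Both calls were lost without WT replicate 2 (0.193 and 0.303) and without Sox17eKO replicate 1 (0.271 and 0.253). Of 47 ribosome biogenesis factors, Mdn1, a remodelling enzyme of the pre-60S particle, rose at 0.52 (adjusted p = 0.000831) and none fell, with a median of -0.03. The call of Mdn1 was lost when the length trend was removed (0.22, adjusted p = 0.138).

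Of 22 genes of TOP messenger RNA and growth control, Rictor, a subunit of mTOR complex 2, rose at 0.37 (edgeR adjusted p = 0.0133) and the kinase gene Akt1 fell at -0.29 (adjusted p = 0.0403), with a median of 0.02. Without WT replicate 2 both were lost (0.178 and 0.281), as was Akt1 without Sox17eKO replicate 1 (0.251). Mitochondrial ribosomal proteins, which are encoded in the nucleus but serve another ribosome, had 3 genes that fell and none that rose among 81 tested. These were Mrps11 (-0.52, adjusted p = 0.0371), Mrpl34 (-0.35, 0.0440) and Mrpl54 (-0.36, 0.0302), and each was lost without WT replicate 2 (0.401, 0.308 and 0.289). The 3 were also lost without Sox17eKO replicate 1 (0.0585, 0.174 and 0.0615) and without Sox17eKO replicate 2 (0.0567, 0.0879 and 0.108). Removal of the length trend ended the calls of every called gene named from these lists, library size alone ended those of Eif5a, Akt1 and Mrpl34 (0.0693, 0.0709 and 0.0609), and DESeq2 ended those of Eif3f and Mrpl54 (0.0641 and 0.0669). Their list had a median of -0.14 with 71 of 81 below WT, beside -0.11 and 66 of 88 for the cytoplasmic members.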

How the data were processed

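Total RNA was made into strand-specific libraries, per the labels' protocols. Deposited by the authors were unnormalized counts of reads for each Ensembl gene, made with TopHat2 and HTSeq on mm10 per the submitters' processing notes. Versions, annotation release and strand setting are not given in the sources used here. The 5 HTSeq summary lines, which name no gene, were left out. Of uniquely placed reads, 20.4% to 34.1% lay outside features and 3.38% to 6.22% were ambiguous. Alignments of reads that fit several places numbered 3.96 to 5.12 per gene read, with overlap between the genotypes, and are in no gene's count. They cannot be given back to the members, so every level and fold change here rests on the other reads. Symbols (45143 of 45706 genes matched), exonic lengths and coordinates came from GENCODE M21 (GRCm38), and start sites from RefSeq (GRCm38.p6). Exonic length joins the exons of all annotated transcripts of a gene and can exceed the length of its messenger RNA. The levels per kilobase, subunit ratios, paralogue shares and length classes use it.

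Counts were tested with edgeR 4.0.16 in R 4.3.3 (TMM, filterByExpr, robust quasi-likelihood fit, genotype as the only term) on 16570 genes, with Benjamini-Hochberg adjustment over all of them. CPM is TMM-scaled, and standard errors were taken from the fold change and its F statistic. The procedure was tested on simulated data. Alternatives were DESeq2 1.42.0, limma-voom (limma 3.58.1), other scalings and filters, a replicate block, leaving out each library, and removal of a length trend (mgcv 1.9.3). That trend was fitted in each library on exonic length and genomic span together, over protein-coding genes only. Intervals of fold changes come from the fit and include the spread between pools. Floors cover counting error only, since the reads carry no molecular identifiers.

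The members and lists were chosen with earlier results of these data known. Named genes were Sox17, called members, paralogue pairs, the 6 highest and 6 lowest levels, the 5 highest and 5 lowest fold changes, Rps19bp1, Fau, Rack1 and up to 4 called genes per list. Other members (the stalk, Rps3, Rps6, Rpl5, Rps27rt and the annotated pseudogenes), Cdkn1a and Trp53 were named after their values were seen. A member and a list gene that the rule would name are not reported here, though the counts and medians include them. Same-numbered libraries did not deviate together (correlation -0.032).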

Additional observations from a re-analysis of the deposited data

How the results depend on the processing

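Calls over all genes numbered 886, against 1364 with no filter on low counts, 409 with DESeq2, 149 with the length trend removed and 192 to 1219 with 1 library left out. The 192 came without WT replicate 2, which had the fewest reads. For the members, 3 were called with no filter (Rplp2, Rps2 and Rps27l), 0 with the length trend removed and 1 to 5 with 1 library left out. The 5 came without WT replicate 1 (Rpl38, Rpl7a, Rplp2, Rps27l and Rps3a3). The members' median of -0.11 was -0.15 to -0.07 with 1 library left out and turned to 0.025 with the length trend removed. With replicate number as a block, 1684 genes and 2 members (Rplp2 and Rps27l) were called. With block and length trend removal, 453 protein-coding genes and 0 members were called, with a median of 0.024 for the protein-coding members. The numbers do not pair the libraries (correlation -0.032). The difference in subunit ratio ran from -0.0147 to 0.0407, that in the Rpl22l1 share from -0.190 to 1.10 and that in the Rps4l share from -0.699 to 1.46 percentage points with 1 library left out.

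Log2 fold changes near 0 turned in sign under some settings, for causes that were not tested. After removal of the length trend, Rpl10 was at 0.061, Rpl36al at 0.077 and Rpl7l1 at 0.035. With the replicate block as well they were at 0.068, 0.085 and 0.040, and Rpl36a at 0.0068. With 1 library left out, Rpl10 ran from -0.14 to 0.053, Rpl3 from -0.045 to 0.072, Rpl36al from -0.12 to 0.017 and Rpl7l1 from -0.11 to 0.076. Rpl7l1 was at 0.013 with library size only, and with -ps copies added Rpl3 was at -0.12 and Rpl9 at -0.16. Depth limits members with few reads, such as Rpl24 with 9 to 37 reads a library.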
